A study of Mus musculus with 40 samples.

Results

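The pooled comparison set 10 kidney libraries from mice given the dioxin TCDD (2,3,7,8-tetrachlorodibenzo-p-dioxin) at 1 or 3 µg/kg against 15 libraries from mice at the lowest exposures, which were 5 given the sesame oil vehicle alone, 5 given 0.03 µg/kg and 5 given 0.1 µg/kg. These 25 libraries were chosen by dose alone from a series of 40, and the 15 libraries at 0.3, 10 and 30 µg/kg stood outside the comparison. All animals were male C57BL/6 mice without a genetic change, dosed by gavage at 4-day intervals from an age of 30 days and killed at 58 days, 28 days after the first of 7 administrations. Each dose had 5 mice, and each library held total RNA from part of the right kidney of 1 mouse, so it mixes every cell type of the organ. The comparison asks which changes below 10 µg/kg can be seen when more libraries stand on each side, with the lowest doses counted as control. Vehicle animals carry the oil and the gavage as well, so neither differs between the sides.

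TCDD binds the aryl hydrocarbon receptor (AhR), a cytosolic transcription factor that moves to the nucleus, pairs with ARNT and binds short DNA elements with the core GCGTG. Its classical targets include cytochrome P450 enzymes of the CYP1 family, the detoxifying enzyme NQO1 and the AhR repressor, which dampens the receptor in return. Interferons act through receptor-linked kinases and the transcription factors they activate, which bind interferon-stimulated response elements and raise antiviral proteins, immunity-related GTPases and the machinery that presents antigen on MHC molecules. In kidney, antigen presentation on MHC class II is mostly a property of resident macrophages and dendritic cells, and interferon-gamma can also induce it in tubular cells.

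Promoter sequences are shown for 5 genes that the results below turn on, as the 250 bases before the annotated start on the gene's strand, from RefSeq on build GRCm38.p6. Cyp1a1 and Ahrr are AhR targets, Ifit1 is an antiviral interferon target, Gbp2 is an interferon-induced GTPase and Cxcl10 is an interferon-induced chemokine. Capitals mark GCGTG, the AhR element core, and the interferon-stimulated response element, searched as 2 copies of GAAA with any 2 bases between them, on either strand, so that elements on the other strand appear as CACGC and as TTTC repeated in the same way. The windows are chr9:57697363-57697612 (plus strand) for Cyp1a1, chr13:74292332-74292581 (minus) for Ahrr, chr19:34640639-34640888 (plus) for Ifit1, chr3:142620413-142620662 (plus) for Gbp2 and chr5:92348890-92349139 (minus) for Cxcl10. No marked match overlaps another.
Cyp1a1: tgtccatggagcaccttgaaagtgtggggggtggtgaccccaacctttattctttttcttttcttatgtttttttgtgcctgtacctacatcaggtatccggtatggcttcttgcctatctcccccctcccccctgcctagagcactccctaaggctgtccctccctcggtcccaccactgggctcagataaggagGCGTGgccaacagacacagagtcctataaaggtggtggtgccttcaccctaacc
Ahrr: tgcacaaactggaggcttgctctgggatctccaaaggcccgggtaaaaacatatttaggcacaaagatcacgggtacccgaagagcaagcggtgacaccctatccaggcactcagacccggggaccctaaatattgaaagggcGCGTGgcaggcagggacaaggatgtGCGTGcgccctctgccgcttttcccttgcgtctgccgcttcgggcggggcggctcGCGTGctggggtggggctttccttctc
Ifit1: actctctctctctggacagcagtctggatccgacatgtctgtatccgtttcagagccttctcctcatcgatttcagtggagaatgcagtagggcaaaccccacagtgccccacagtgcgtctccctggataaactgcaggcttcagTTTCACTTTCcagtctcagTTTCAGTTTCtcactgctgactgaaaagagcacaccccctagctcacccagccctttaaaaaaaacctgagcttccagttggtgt
Gbp2: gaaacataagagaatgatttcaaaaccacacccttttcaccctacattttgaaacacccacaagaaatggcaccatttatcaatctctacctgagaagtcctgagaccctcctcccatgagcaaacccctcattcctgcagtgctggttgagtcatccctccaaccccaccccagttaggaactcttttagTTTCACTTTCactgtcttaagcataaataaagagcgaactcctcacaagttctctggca
Cxcl10: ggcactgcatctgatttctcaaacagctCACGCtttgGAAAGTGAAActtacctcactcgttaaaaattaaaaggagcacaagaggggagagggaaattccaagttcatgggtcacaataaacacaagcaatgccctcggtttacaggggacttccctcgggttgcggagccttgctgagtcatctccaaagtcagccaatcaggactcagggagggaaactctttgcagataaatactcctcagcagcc

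The gene-level counts summed to between 15278423 and 25575317 per library over the series, with 16595 genes tested in the 25 libraries. Of 8 technical measures compared between the sides (total counts, mitochondrial share, share of the 10 most abundant genes, 4 read-assignment shares and a cortex minus medulla score), none passed a two-sided permutation test, and the lowest p was 0.0520 (0.182 after adjustment over the 8). A few libraries stood apart. Vehicle replicates 1 and 2 had cortex minus medulla scores, in log2 units, of 1.04 and 1.35, against -0.07 to 0.67 in the other 23. Adrenal cortex markers summed to 577 CPM (counts per library scaled to library size) in replicate 1 at 0.03 µg/kg, to 620 CPM in replicate 4 at 1 µg/kg and to 34.8 CPM in replicate 2 at 3 µg/kg, against 3.21 to 6.73 CPM in the other 22. Immediate early genes summed to 794 CPM in replicate 4 at 0.03 µg/kg, against 154 to 269 CPM elsewhere. Several counts below are also given without these libraries.

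At 1 and 3 µg/kg the kidneys had more RNA of AhR targets, interferon targets, antigen presentation genes and leukocyte markers. Fewer genes were lower, and 70 of the 79 belonged to no list. Tested by quasi-likelihood in edgeR, with p-values adjusted by Benjamini-Hochberg over all genes, 440 genes (2.65% of 16595) passed an adjusted p of 0.05 and are referred to as called. An unadjusted p under 0.05 was reached by 2127 (12.8%), where chance gives 830. Of the 440 called genes, 361 (2.18%) were higher and 79 (0.476%) were lower on the treated side. The median log2 fold change was 0.77 among the higher genes and -0.20 among the lower ones, beside -0.00 over all genes tested. Small changes made up much of the result: 198 called genes changed by less than 1.5-fold, 125 of them higher and 73 lower, so most of the lower genes were of this kind. Changes above 2-fold were called for 128 higher and 2 lower genes. All 10 treated libraries lay beyond all 15 control-side libraries for 42 genes (0.253% of those tested), all of which were also called. The lower count moved with the libraries used: it was 37 in a fit of all 40 libraries and 37 without the 3 libraries holding adrenal transcripts, and leaving out single libraries moved it between 41 (without replicate 3 at 3 µg/kg) and 129 (without replicate 4 at 3 µg/kg). It was 45 without replicate 2 at 1 µg/kg and 51 without replicate 5 at 3 µg/kg.

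**Figure D1:**
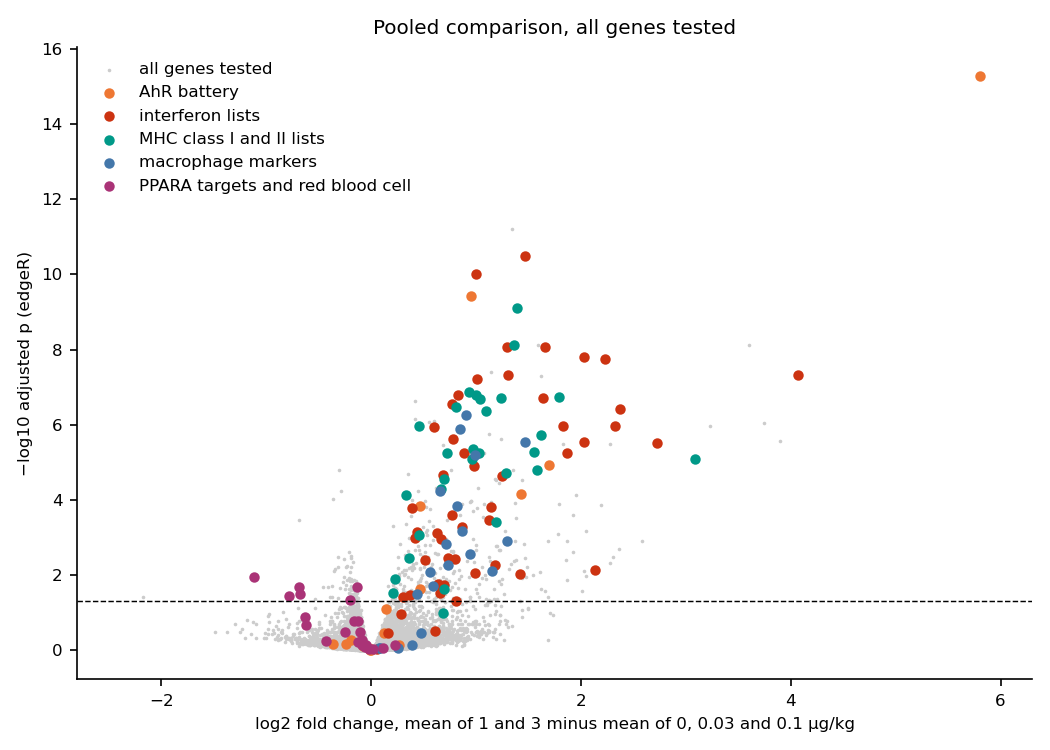
Log2 fold change (x axis, mean of 1 and 3 µg/kg minus mean of 0, 0.03 and 0.1 µg/kg) against −log10 of the adjusted p (y axis) for the 16595 genes tested, with members of 8 gene lists in colour and the 0.05 threshold as a dashed line. Cyp1a1 stands alone at a log2 fold change of 5.80, and the interferon and MHC lists fill the upper right. Of the 79 called lower genes, 73 changed by less than 1.5-fold and 2 by more than 2-fold.

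The AhR target with the clearest response was Cyp1a1, a monooxygenase of planar aromatic compounds (ENSMUSG00000032315). Its level ran from 1.15 to 6.67 CPM with a median of 3.40 on the control side, and from 87.5 to 359 CPM with a median of 176 on the treated side, so the sides were far apart. The log2 fold change was 5.80 ± 0.16 (SE, adjusted p = 5.16e-16, 10 of 10 treated libraries above all 15 control-side libraries). By dose the means were 2.37 ± 1.25 CPM for vehicle, 2.16 ± 1.08 at 0.03, 5.50 ± 1.10 at 0.1, 99.1 ± 11.7 at 1 and 294 ± 58.3 at 3 µg/kg (SD, n = 5 each). The 3 doses outside the comparison continued the order, with 24.7 ± 6.35 CPM at 0.3, 1569 ± 143 at 10 and 2535 ± 429 at 30 µg/kg. Between the 0.03 and 0.1 µg/kg mice and vehicle, the log2 difference of Cyp1a1 was 0.56 ± 0.29 and did not pass (SE, adjusted p = 0.569). That difference averages the 0.03 and 0.1 µg/kg doses. Libraries ran from 1.15 to 4.00 CPM for vehicle, 1.28 to 4.03 CPM at 0.03 and 3.95 to 6.67 CPM at 0.1 µg/kg. The 0.1 µg/kg dose alone was not tested against vehicle.

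Cyp1b1, a related P450 enzyme, had a smaller fold change. It ran from 18.1 to 28.2 CPM (median 24.1) on the control side and from 27.0 to 82.8 CPM (median 47.1) on the treated side, with 9 of 10 treated libraries above every control-side library. Its log2 fold change was 0.96 ± 0.08 (SE, adjusted p = 3.75e-10). Ahrr, the AhR repressor, had a control-side median of 1.05 CPM (0.452 to 2.27) and a treated-side median of 3.17 CPM (0.755 to 6.05), with a log2 fold change of 1.69 ± 0.24 (SE, adjusted p = 1.16e-05). The aldehyde dehydrogenase Aldh3a1 rose by 1.43 ± 0.23 and the quinone reductase Nqo1 by 0.46 ± 0.07 on the log2 scale (adjusted p = 6.97e-05 and 0.000142). Against vehicle alone, the adjusted p of Nqo1 was 0.088 at 1 µg/kg and 0.000275 at 3 µg/kg. Without the 3 µg/kg group Nqo1 and Ahrr lost their pooled calls (adjusted p = 0.191 and 0.0860), and 3 battery members were called. Over all genes that fit called 144 higher, beside 361.

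Of the 16 tested members of the AhR battery, 6 were called higher and none lower, the sixth being the xanthine dehydrogenase gene Xdh, and the list's median log2 fold change was 0.13. The other 10, among them Ugt1a6a, Ugt1a6b, Gsta2 and Nfe2l2, did not pass. Tiparp, a mono-ADP-ribosyltransferase that feeds back on AhR, had a log2 fold change of 0.00 ± 0.06 (SE, adjusted p = 0.993) with a control-side range of 24.3 to 34.7 CPM and a treated-side range of 23.3 to 32.3 CPM. Cyp1a2 was too low to be tested, at 0 to 0.393 CPM on the control side and 0 to 0.515 CPM on the treated side. None of the 7 genes of the receptor complex was called, and Ahr and Arnt had log2 fold changes of 0.11 ± 0.10 and 0.04 ± 0.06 (SE). Of 14 tested NRF2 targets, which defend against oxidative stress, Nqo1 alone was called. Among 4 promoters found for the called battery genes, 3 held GCGTG, beside 41.6% of the promoters of all tested genes and 28.2% of 32851 promoters of that length.

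**Figure D2:**
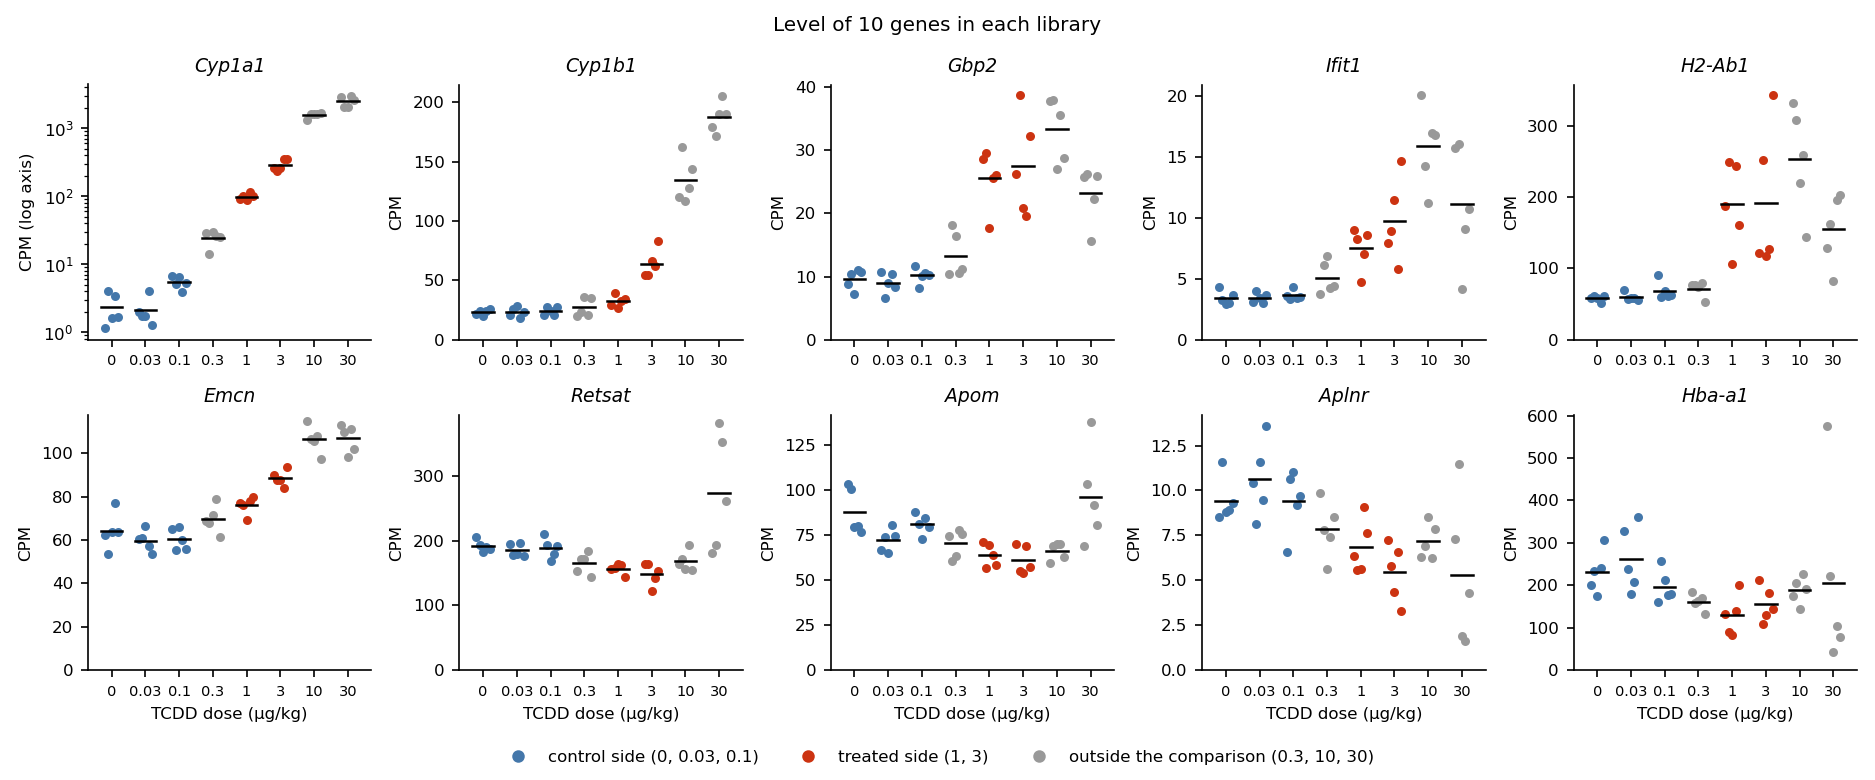
CPM of 10 genes in each library (y axis, logarithmic for Cyp1a1) by TCDD dose in µg/kg (x axis), with points for the 5 libraries of a dose and a line at their arithmetic mean. Cyp1a1 climbs at every step from 0.1 µg/kg, Gbp2, Ifit1 and H2-Ab1 have higher means at 1 than at 0.3 µg/kg, and Retsat and Apom are lower at 1 and 3 µg/kg but have higher means at 30 µg/kg.

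The interferon-gamma-inducible GTPases, which act on vacuoles that hold microbes, were higher as a list. All 18 were called, 12 of them with no overlap between the sides, and their median log2 fold change was 1.77. Gbp2 (ENSMUSG00000028270) ran from 6.58 to 11.6 CPM (median 10.3) on the control side and from 17.7 to 38.8 CPM (median 26.1) on the treated side, with a log2 fold change of 1.47 ± 0.11 (SE, adjusted p = 3.25e-11). The sides did not overlap. Gbp4 rose from a median of 7.21 to 23.5 CPM and Tgtp2 from 4.32 to 19.1 CPM, with log2 fold changes of 1.66 ± 0.14 and 2.03 ± 0.17 (SE, adjusted p = 8.28e-09 and 1.59e-08), again without overlap. Gbp2b was close to absent on the control side (0 to 0.370 CPM, 0 to 6 counts a library) and reached 0.579 to 3.42 CPM on the treated side. Its ratio of mean CPM was 16.3, while its fitted log2 fold change of 4.07 ± 0.43 (SE, adjusted p = 4.85e-08) depends on how counts of 0 are handled. Some of these genes resemble each other closely in sequence. Reads that map to several of them were not counted, so the split among such members is uncertain.

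The type I interferon list had 28 of 32 members called higher, none lower, and a median log2 fold change of 0.69. Ifit1, an RNA-binding antiviral protein, rose from a median of 3.45 to 8.42 CPM (log2 fold change 1.30 ± 0.13 SE, adjusted p = 8.33e-09), and Parp14, an ADP-ribosyltransferase, from 15.5 to 30.9 CPM (1.01 ± 0.10 SE, adjusted p = 5.91e-08). Both did so without overlap. The 4 members that did not pass were Mx2, Rsad2, Ifi27l2a and Cmpk2, with log2 fold changes of 0.61, 0.29, 0.06 and 0.16. Without the 3 µg/kg group, 16 of the 32 were called, at a median of 0.64, and with vehicle alone as control 14, at 0.80. Over all genes these fits called 144 and 162 higher, beside 361.

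The interferon-stimulated response element, in the form searched here, stood in 20 of 35 promoters (57.1%) found for called genes of both interferon lists, beside 2.98% of all 32851 promoters and 2.74% of those of the tested genes. Called higher genes outside these lists had it in 30 of 282 promoters (10.6%), and called lower genes in 2 of 78 (2.56%). GCGTG stood in 26.5% of 317 promoters of called higher genes, beside 41.6% for all tested genes. Some genes have more than 1 annotated start, so promoters of a gene can share bases, and these shares are a description.

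Antigen presentation on MHC class I, which shows peptides of a cell's own proteins, was higher throughout: all 19 tested members were called, 8 of them without overlap, with a median log2 fold change of 0.73. The inducible proteasome subunits Psmb9, Psmb8 and Psmb10 rose by 1.39 ± 0.12, 1.36 ± 0.13 and 0.94 ± 0.10 on the log2 scale (SE, adjusted p = 7.74e-10, 7.58e-09 and 1.35e-07). Psmb9 ran from 3.21 to 7.26 CPM on the control side and from 9.63 to 18.3 CPM on the treated side. The peptide transporter Tap1, the transactivator Nlrc5 and the light chain B2m had log2 fold changes of 1.24, 1.79 and 1.03. The small end of the list was H2-T22 at 0.21 ± 0.05 and the proteasome activator subunits Psme1 at 0.23 ± 0.06 and Psme2 at 0.33 ± 0.05 (SE, adjusted p = 0.030, 0.013 and 7.2e-05). Psmb8 shares 14.7% of its exonic bases with another annotated gene, and the classical H2 genes resemble each other closely.

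For MHC class II, which shows peptides from outside the cell to helper T cells, 9 of 10 tested members were called higher, with a median log2 fold change of 1.24. H2-Ab1 (ENSMUSG00000073421) ran from 51.6 to 90.8 CPM (median 60.0) on the control side and from 107 to 343 CPM (median 174) on the treated side, with no overlap and a log2 fold change of 1.62 ± 0.17 (SE, adjusted p = 1.81e-06). H2-Aa rose from a median of 52.5 to 107 CPM, and the protease Ctss, which trims the invariant chain, from 8.50 to 17.1 CPM (log2 fold changes 1.09 ± 0.10 and 1.00 ± 0.11 SE, adjusted p = 4.32e-07 and 1.60e-07). The master regulator Ciita was higher by 1.19 and the invariant chain Cd74 by 1.55 on the log2 scale. H2-Ob, which restrains peptide loading, did not pass at 0.69 ± 0.22 (SE, adjusted p = 0.099). Summed over the list, the level ran from 282 to 485 CPM on the control side and from 503 to 1487 CPM on the treated side. In bulk tissue, a change in the number of cells of a type and a change in RNA per cell cannot be told apart.

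Among chemokines and their receptors, 8 of 20 were called higher and none lower, with a median log2 fold change of 0.57. Interferon-induced ligands were among them: Cxcl10 rose from a median of 2.59 CPM (0.958 to 3.84) to 7.93 CPM (4.59 to 13.7) without overlap, and Cxcl9 from 2.00 to 7.05 CPM, with log2 fold changes of 1.59 ± 0.16 and 1.62 ± 0.17 (SE, adjusted p = 7.58e-09 and 4.96e-08). The monocyte receptor Ccr2 rose by 0.78 ± 0.16 (SE, adjusted p = 0.00227), a change not called at either dose against vehicle alone (adjusted p = 0.322 and 0.0755). Cxcr3, the receptor of Cxcl9 and Cxcl10, had a log2 fold change of 0.28 ± 0.35 and did not pass. Without the 3 µg/kg group 2 of the 20 were called, and with vehicle alone as control also 2. The list's median log2 fold change was 0.54 and 0.61 in these fits, which called 144 and 162 genes higher in all, beside 361.

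**Figure D3:**
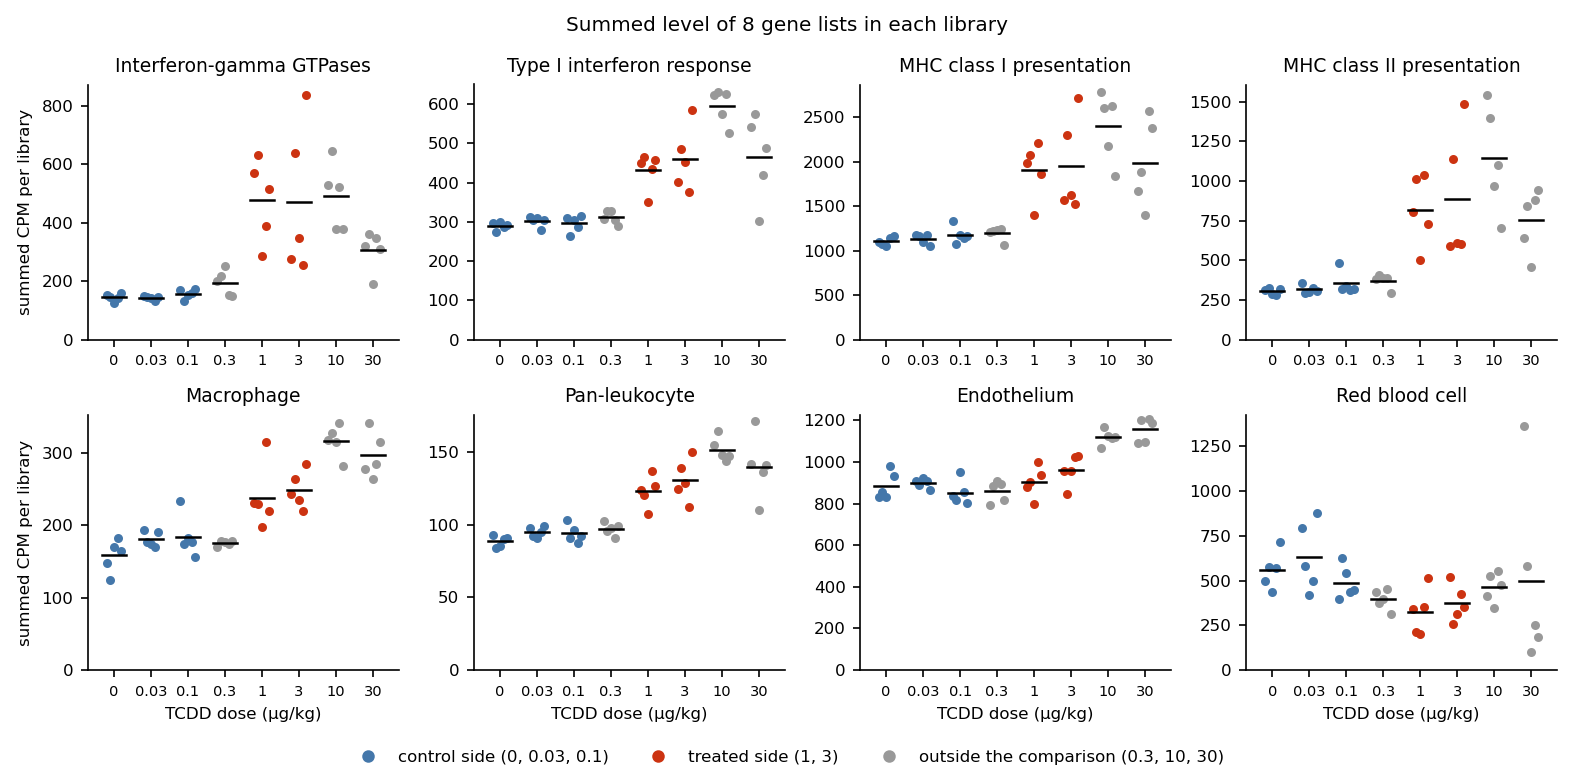
Summed CPM of 8 gene lists in each library (y axis) by TCDD dose in µg/kg (x axis), with a line at the mean of the 5 libraries. The 4 interferon and MHC lists and both leukocyte lists separate the treated side (red) from most or all of the control side (blue), and at 0.3 µg/kg 3 of the 5 libraries lie above every control-side library for the interferon-gamma GTPases, 2 for the type I interferon list and 0 for the other 4.

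Leukocyte markers were higher as well. Of 12 pan-leukocyte genes 9 were called higher (median log2 fold change 0.64), and the list summed to 83.8 to 103 CPM on the control side and 108 to 150 CPM on the treated side. Of 20 macrophage markers 15 were called higher (median 0.72), with sums of 124 to 233 CPM against 197 to 314 CPM. Without the 3 µg/kg group 7 of 19 macrophage and 4 of 12 pan-leukocyte markers were called, and with vehicle alone as control 9 and 6. Over all genes these fits called 144 and 162 higher, beside 361. The macrophage median log2 fold change was 0.69 and 0.81 in them, and the pan-leukocyte median 0.51 and 0.56. Mpeg1, a pore-forming protein of phagocytes, ran from 7.11 to 13.7 CPM on the control side and from 15.1 to 29.0 CPM on the treated side, with no overlap and a log2 fold change of 0.91 ± 0.11 (SE, adjusted p = 5.48e-07). C1qa, a complement subunit made by macrophages, rose by 0.85 ± 0.10 and the Fc receptor gene Fcgr1 by 1.46 ± 0.19 (SE, adjusted p = 1.33e-06 and 2.92e-06). Csf1r, which defines the lineage, did not pass at 0.08 ± 0.14 (SE, adjusted p = 0.88).

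Other immune cells gave fewer calls. Of 7 dendritic cell markers, Clec9a and Itgax were called, and none of 10 T and NK cell markers or 7 B cell markers was. The T and NK cell list summed to 5.98 to 10.0 CPM on the control side and 6.10 to 13.2 CPM on the treated side, with a median log2 fold change of 0.44. No neutrophil marker was high enough to be tested. Markers of leukocytes moved with the interferon and MHC lists, and their part in those results was not tested. Without the 5 libraries with a high cortex score or adrenal transcripts and the 1 with high immediate early genes, a setting chosen after the data were seen, 17 of 18 interferon-gamma GTPases, 23 of 32 type I interferon genes, 15 of 19 MHC class I genes, 9 of 10 MHC class II genes, 7 of 12 pan-leukocyte genes and 11 of 20 macrophage genes were called higher. Over all genes that setting called 288, beside 440.

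Of 16 endothelial markers, 3 were called higher. Emcn, a sialoglycoprotein of capillary and venous endothelium, ran from 53.5 to 76.9 CPM (median 60.8) on the control side and from 69.4 to 93.7 CPM (median 81.8) on the treated side, with 8 of 10 treated libraries above all control-side libraries. Its log2 fold change was 0.42 ± 0.05 (SE, adjusted p = 2.37e-07), and its means went on to 106 CPM at 10 and 107 CPM at 30 µg/kg. The VEGF receptor gene Kdr and the cadherin gene Cdh5 were called at 0.26 ± 0.06 and 0.23 ± 0.06 (SE, adjusted p = 0.0127 and 0.0220). Kdr had means of 73.7 CPM for vehicle, 62.6 CPM at 0.03, 58.5 CPM at 0.1, 71.9 CPM at 1 and 83.5 CPM at 3 µg/kg, and with vehicle alone as control it was at 0.07 (adjusted p = 0.857). Cdh5 was not called with vehicle alone (adjusted p = 0.109) or without the 6 libraries that stood apart (adjusted p = 0.320). The list's median log2 fold change was 0.07, and Pecam1, Flt1 and Tie1 had log2 fold changes of 0.06, 0.07 and 0.01.

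A ranking by fold took called genes with a symbol and a mean of at least 1 CPM on either side. Both treated dose means also had to lie above all control-side dose means. Its 6 largest rises included Atp12a, an ion-transporting H+/K+ ATPase, and Apol7c, an apolipoprotein L family member. Gm8221 and BC023105 were also among them and are annotated as pseudogenes, so reads of related genes may be counted there. Atp12a had means of 0.319 CPM for vehicle, 1.44 CPM at 1, 5.70 CPM at 3, 19.2 CPM at 10 and 40.7 CPM at 30 µg/kg. Its log2 fold change was 3.74 ± 0.42 (SE, adjusted p = 8.68e-07), and at 1 µg/kg against vehicle alone it was not called (adjusted p = 0.179). The sides overlapped, with 0 to 0.916 CPM against 0.348 to 8.41 CPM. Control-side counts of Atp12a ran from 0 to 14 a library, so its fitted size depends on how counts of 0 are handled. Atp12a also shares 13.9% of its exonic bases with Gm10873. Apol7c ran from 0 to 1.48 CPM on the control side and from 1.93 to 5.85 CPM on the treated side (3.61 ± 0.33 SE, adjusted p = 7.58e-09), without overlap. BC023105 ran from 0.394 to 1.71 CPM against 2.40 to 22.5 CPM (3.24 ± 0.33 SE, adjusted p = 1.11e-06), and its mean was lower at 30 µg/kg (3.78 CPM) than at 1 µg/kg (10.0 CPM). Gm8221 had a log2 fold change of 3.90 ± 0.52 (SE, adjusted p = 2.77e-06) from control-side counts of 0 to 8 a library, so its fitted size depends on how counts of 0 are handled.

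The lower genes were fewer, and 73 of the 79 changed by less than 1.5-fold. The one with the smallest adjusted p was Retsat, which encodes retinol saturase (ENSMUSG00000056666). It ran from 169 to 210 CPM (median 191) on the control side and from 123 to 165 CPM (median 157) on the treated side, so that all 10 treated libraries were below all 15 others with a change of only 1.23-fold (log2 fold change -0.30 ± 0.04 SE, adjusted p = 1.55e-05). Retsat shares 18.4% of its exonic bases with Gm45053. Its log2 fold change in the counts labelled sense-strand was also -0.30. Those held 50.6 to 51.0% of the counts of both strands in the 25 libraries, so they cannot tell reads of these genes apart. Mogs, a glucosidase of N-glycan trimming, fell by 0.28 ± 0.04 and Apom, an apolipoprotein that carries sphingosine 1-phosphate, by 0.36 ± 0.06 on the log2 scale (SE, adjusted p = 5.62e-05 and 9.43e-05). Mogs was below all control-side libraries in 9 of 10 treated libraries and Apom in 6. Without the 3 µg/kg group Mogs was not called (adjusted p = 0.146). At 30 µg/kg, outside the comparison, Retsat and Apom had means of 274 and 96.5 CPM, above their vehicle means of 192 and 88.1 CPM.

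Of 19 tested targets of PPARA, the fasting-responsive receptor of lipid use, 3 were called lower and none higher, with a median of -0.09. Among them were the beta-oxidation genes Hadha (-0.14 ± 0.03 SE, adjusted p = 0.0206) and Acaa1b (-0.20 ± 0.06 SE, adjusted p = 0.0450). The Hadha call is among the smallest effects in the comparison, and both calls were lost in the fit of all 40 libraries and without the 3 libraries with adrenal transcripts. No PPARA target was called without the 6 libraries that stood apart, with vehicle alone as control or without the 3 µg/kg group. Over all genes these fits called 39, 29 and 5 lower, beside 79.

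Globin transcripts were lower. Hba-a1 ran from 160.95 to 360 CPM (median 212) on the control side and from 83.6 to 213 CPM (median 135) on the treated side, with a log2 fold change of -0.69 ± 0.16 (SE, adjusted p = 0.0205). Hbb-bs and Hbb-bt fell by 0.67 ± 0.17 and 0.79 ± 0.20 (SE, adjusted p = 0.0315 and 0.0362), and Hba-a2 and Alas2 did not pass at -0.62 and -0.63. The 5 red blood cell genes summed to 396 to 876 CPM against 200 to 518 CPM. Without the 3 libraries with adrenal transcripts none of the 5 was called, at a median of -0.60, nor was any with vehicle alone as control, at -0.71. Over all genes these fits called 37 and 29 lower, beside 79. Globin copies resemble each other closely.

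In the distal nephron, the calcium-binding protein gene Calb1 fell by 0.21 ± 0.04 and the sodium channel subunit genes Scnn1g and Scnn1b by 0.23 ± 0.05 and 0.19 ± 0.05 on the log2 scale (SE, adjusted p = 0.00247, 0.00563 and 0.0129). Neither sodium channel gene was called without the 6 libraries that stood apart or with vehicle alone as control, and Calb1 was not called without the 3 µg/kg group. Mean levels of Calb1 were 565 CPM for vehicle, 471 CPM at 1 and 464 CPM at 3 µg/kg. The apelin receptor gene Aplnr was also lower (median 9.46 against 6.09 CPM, -0.68 ± 0.12 SE, adjusted p = 0.000333). It was not called with vehicle alone as control or without the 3 µg/kg group (adjusted p 0.0569 to 0.0777). The carboxylesterase gene Ces1g was lower too (median 94.1 against 64.1 CPM, -0.53 ± 0.14 SE, adjusted p = 0.0432) but lost its call under most alternatives. Gulo, the last enzyme of vitamin C synthesis, had the largest fitted decrease (-2.18 ± 0.60 SE, adjusted p = 0.0375) at levels below 1 CPM. It is mentioned for its size and was picked after its values were seen.

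Several lists gave no calls. None of 20 cholesterol synthesis genes, 8 androgen-responsive kidney genes, 17 clock genes, 13 immediate early genes or 13 fibrosis and fibroblast genes was called. The same held for markers of podocytes, both proximal tubule segments, the thick ascending limb, intercalated cells, fat and liver. Of 11 injury genes, Vcam1, an adhesion molecule, and Cdkn1a, a cell cycle inhibitor, were called higher by 0.59 and 0.52 on the log2 scale. The injury markers Havcr1 (KIM-1) and Lcn2 (NGAL) did not pass, at -0.16 ± 0.27 and 0.20 ± 0.20 (SE). Complement gave C4b and C3ar1 as 2 of 12, at 1.43 and 1.00, and none with vehicle alone as control. The list's median was 0.22, and 0.15 with vehicle alone, where 162 genes were called higher in all, beside 361.

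**Figure D4:**
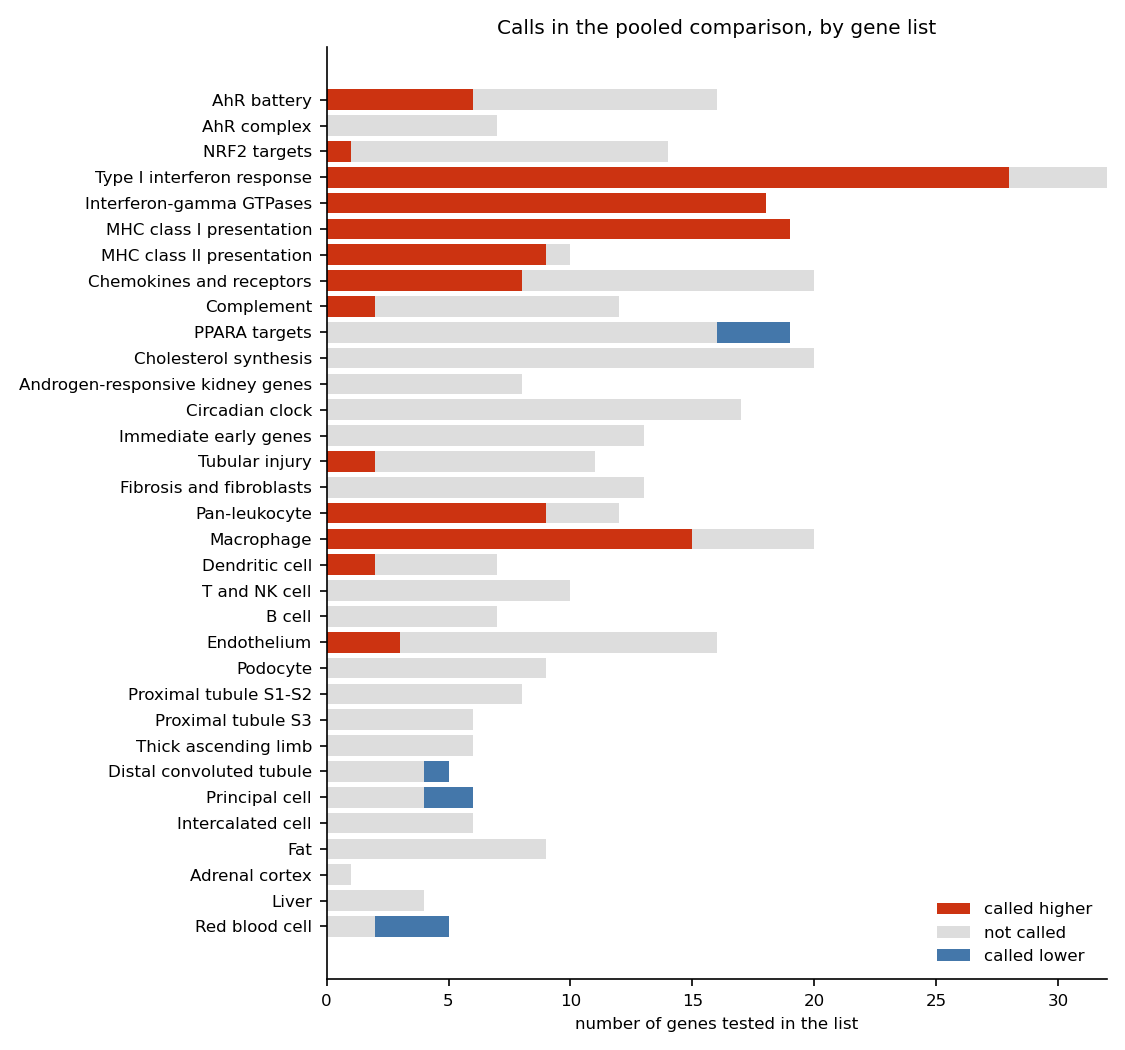
Number of tested genes in each gene list (x axis) that were called higher, called lower or not called in the pooled comparison. The interferon, MHC, macrophage and pan-leukocyte lists are mostly called higher, and calls lower occur in the PPARA, distal convoluted tubule, principal cell and red blood cell lists.

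The lists cover only part of the result: 120 of the 361 higher genes and 9 of the 79 lower genes belonged to any list. The interferon and MHC lists held 74 of the higher genes, 12 of which changed by less than 1.5-fold. Among small changes, 101 of the 125 higher genes and 68 of the 73 lower genes were in no list. Acer2, a ceramidase, was the called gene outside the immune lists with one of the tightest small rises: 18.2 to 28.8 CPM (median 24.4) against 29.2 to 41.3 CPM (median 35.3), with no overlap and a log2 fold change of 0.56 ± 0.07 (SE, adjusted p = 8.64e-07). Lcp1, an actin-bundling protein of leukocytes, showed the same picture, with 20.3 to 27.6 CPM against 28.4 to 40.5 CPM (0.42 ± 0.05 SE, adjusted p = 7.12e-07).

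The single doses were also set against vehicle alone, with 5 libraries a side in the same fit and with shared libraries. The 1 µg/kg group gave 98 calls (0.591%), of which 90 were higher (0.542%) and 8 lower (0.0482%). The 3 µg/kg group gave 234 calls (1.41%), of which 193 were higher (1.16%) and 41 lower (0.247%). The median standard error of the log2 fold change was 0.0880 in the pooled comparison, 0.137 at 1 and 0.137 at 3 µg/kg, and the smallest called log2 fold change was 0.13, 0.27 and 0.21 in size. Of the 440 pooled calls, 248 passed at neither single dose, 190 higher and 58 lower, and 126 of these changed by less than 1.5-fold. The single-dose counts fell to 54 and 120 without vehicle replicates 1 and 2, whose cortex scores stood apart, while the pooled count was 420. Leaving out vehicle replicate 2 alone gave 138 calls at 3 µg/kg and leaving out replicate 5 at 3 µg/kg gave 150.

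Genes called in the pooled comparison and at neither single dose included immune, urothelial and metabolic genes. Pik3ap1, a signalling adaptor of immune cells, ran from 0.835 to 3.45 CPM against 2.73 to 5.50 CPM (log2 fold change 1.18 ± 0.18 SE, adjusted p = 2.79e-05), with adjusted p of 0.415 at 1 and 0.103 at 3 µg/kg. Slfn2, a regulator of lymphocyte and myeloid quiescence, ran from 4.34 to 7.37 CPM against 6.68 to 9.62 CPM (0.62 ± 0.10 SE, adjusted p = 4.93e-05). The uroplakin gene Upk2, a urothelial product, ran from 1.54 to 5.95 CPM against 5.08 to 10.7 CPM (1.07 ± 0.17 SE, adjusted p = 0.000128). On the lower side, glutamine synthetase Glul went from a median of 517 to 450 CPM, the tubulin gene Tubb2a from 56.3 to 43.8 CPM and sarcosine dehydrogenase Sardh from 252 to 219 CPM. Their log2 fold changes were -0.19 ± 0.04, -0.31 ± 0.07 and -0.19 ± 0.04 (SE, adjusted p = 0.00310, 0.00327 and 0.00345), and the sides overlapped for all 3. With vehicle alone as control, or without the 3 µg/kg group, none of these 3 was called. Sardh was not called without the 6 libraries that stood apart (adjusted p = 0.0764). Of the higher genes, Pik3ap1 and Upk2 were not called with vehicle alone as control (adjusted p = 0.128 and 0.0569). At 1 and 3 µg/kg against vehicle, adjusted p was 0.0621 and 0.0577 for Slfn2 and 0.319 and 0.0552 for Upk2.

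Between the 2 treated doses, 2 genes (0.0121%) differed, both higher at 3 than at 1 µg/kg: Cyp1a1 by 1.57 ± 0.20 and Cyp1b1 by 0.99 ± 0.12 on the log2 scale (SE, adjusted p = 0.000909 and 4.04e-05). An unadjusted p under 0.05 was reached by 547 genes (3.3%), fewer than the 830 expected by chance. None of the 18 interferon-gamma GTPases was called between the doses, their differences ran from -0.61 to 0.47 with a median of 0.03, and the median standard error was 0.30. For Gbp2 the difference was 0.11 ± 0.16 and for H2-Ab1 0.02 ± 0.26 (SE). Differences of about the size of their errors therefore cannot be resolved for these genes.

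Within the control side, no gene was called between the mice at 0.03 and 0.1 µg/kg and vehicle with edgeR, while 1515 genes (9.13%) had an unadjusted p under 0.05 and DESeq2 called 17. The edgeR count rose to 41 without vehicle replicate 5 and to 6 without vehicle replicate 3. Using vehicle alone as control for the same treated libraries gave 191 calls in place of 440.

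The 15 libraries outside the comparison allowed a check that shares no library with it, by setting 10 against 0.3 µg/kg in their own fit. That comparison called 425 of 16165 genes (2.63%). Of the 361 higher genes 358 were tested there, and 349 (97.5%) were again higher, beside 48.5% of all genes, while 192 (53.6%) were called higher, beside 2.38%. Among small changes, 116 of the 125 higher genes below 1.5-fold were higher and 63 were called. Of the 79 lower genes, 52 (65.8%) were lower, beside 51.5% of all genes, and 3 (3.80%) were called, beside 0.254%.

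The 3 called lower genes were Calb1, the kallikrein gene Klk1 and the butyrophilin-like gene Btnl9, with log2 fold changes of -0.48, -0.56 and -0.86 at 10 against 0.3 µg/kg and adjusted p of 0.00435, 0.00270 and 0.0154. Retsat, Mogs and Apom were at 0.03 ± 0.17, -0.02 ± 0.10 and -0.09 ± 0.14 there (SE), and their means at 0.3 µg/kg (165, 40.2 and 70.5 CPM) lay between those of vehicle and of 3 µg/kg. Of the 6 lower genes at 1.5-fold or more, 1 was lower and none was called. Among the higher genes, Gbp2 and H2-Ab1 had log2 fold changes of 1.32 ± 0.17 and 1.82 ± 0.26 (SE, adjusted p = 0.000105 and 0.00167). At 30 µg/kg their means were 23.2 and 155 CPM, below the 33.4 and 253 CPM at 10 µg/kg, a difference that was not tested.

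**Figure D5:**
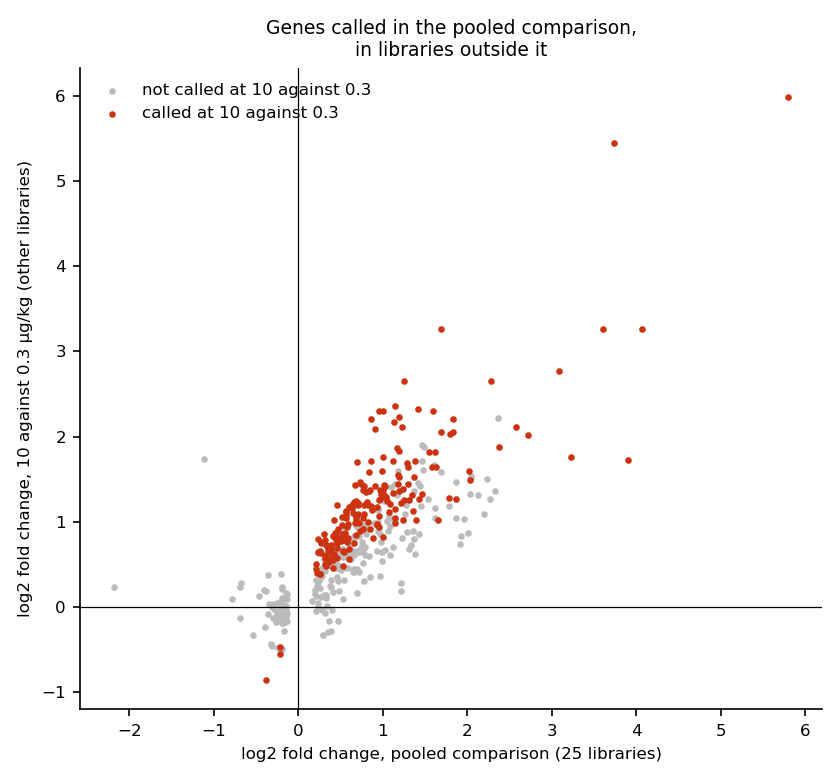
Log2 fold change in the pooled comparison (x axis) against that of 10 over 0.3 µg/kg in libraries outside it (y axis), for the called genes tested in both, with genes called in the second comparison in red. Of the higher genes 349 of 358 lie above 0 on the y axis, and 52 of the 79 lower genes lie below it.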

How the data were processed

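Poly-adenylated or total RNA selection is not given in the sources used here; per the labels' protocols, total RNA of right kidney was made into libraries with an NEB kit and sequenced as paired reads. The authors deposited 1 file of gene counts per library, with unstranded counts and counts for either strand; FastQC 0.11.7, Trimmomatic 0.39, STAR 2.7.3a and DESeq2 are named in the submitters' processing notes, which list both GRCm39 and mm10, so no gene coordinates were taken from the files. In such counts, reads that map to several places or to overlapping genes are left out. Gene symbols came from GENCODE M21 (52083 of 55359 identifiers matched). A further table of the whole series was not used here.

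The deposited unstranded counts were analysed with edgeR 4.0.16 in R 4.3.3: filterByExpr by dose group, TMM scaling, a robust quasi-likelihood fit with 5 dose groups as terms in the 25 libraries, and Benjamini-Hochberg adjustment over all genes tested. The contrast was the mean of the 1 and 3 µg/kg coefficients minus the mean of the vehicle, 0.03 and 0.1 µg/kg coefficients, so each dose weighs equally. A gene was called at an adjusted p under 0.05. Each SE of a log2 fold change is the size of that change divided by the square root of the quasi-likelihood F statistic. TMM factors in the fit of the 25 libraries ran from 0.970 to 1.04. CPM were computed from the counts and full library sizes, with TMM factors found over all 40 libraries. The biological coefficient of variation was 15.1%. The 10 against 0.3 µg/kg comparison used its own fit of the 15 other libraries. P-values measure the spread between mice of a dose group, 1 library a mouse. Replicates were numbered in accession order, and none of 50 pairs within these 5 groups agreed within sampling noise (chi-square per degree of freedom 6.90 to 34.1).

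The 58 named genes were 11 fixed AhR and injury genes, the called genes with the largest change (6 a direction), those with the smallest adjusted p below 1.5-fold and those called in neither single-dose comparison (3 a direction each), and the called list members with the smallest adjusted p, 2 of which are not reported here. Members and lists (16 of pathways, 20 of cell types) were chosen with earlier results of these data known. The fitting script was tested on simulated counts. Alternatives were other filters, scaling, strand, covariates, DESeq2 1.42.0, other control sides and leaving out groups or single libraries. Promoters (the 250 bases before each start) came from RefSeq for GRCm38.p6 and were found for 261 of 361 higher and 63 of 79 lower genes.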

Additional observations from a re-analysis of the deposited data

Results flagged for a closer look

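In 15 of 294 groups of 5 libraries, 1 library lay far from the other 4 by Dixon's test, where chance gives about 14.7. Cyp1a1 was 4.03 CPM in replicate 4 at 0.03 µg/kg, where the next highest was 2.02 CPM. Cyp1a2 was 0.113 CPM in replicate 3 at 0.1 µg/kg, and 0 in the other 4. Gm8221 was 0.511 CPM in replicate 2 at 0.03 µg/kg and 0.226 CPM in replicate 3 at 0.1 µg/kg, and Apol7c was 0.608 CPM in vehicle replicate 2. Aplnr was 11.6 CPM in vehicle replicate 2, and Glul was 459 CPM in replicate 4 at 0.03 µg/kg, the only low value of these. Ifit1 was 4.29 CPM in replicate 3 at 0.1 µg/kg and Parp14 was 18.2 CPM in vehicle replicate 1. Replicate 1 at 0.1 µg/kg stood out for Psmb8 (5.26 CPM), H2-Ab1 (90.8 CPM) and C1qa (20.8 CPM), each the highest control-side value of its gene. H2-Ab1 was also high in replicate 1 at 0.03 µg/kg (69.1 CPM). Total gene counts were 22659733 in replicate 2 at 0.1 µg/kg and 20292573 in replicate 1 at 1 µg/kg.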

How the results depend on the processing

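The pooled count of 440 calls ranged from 344 to 530 when single libraries were left out. It was 191 with vehicle alone as control, 149 without the 3 µg/kg group and, in fits chosen after the data were seen, 288 without 6 libraries that stood apart. By DESeq2 551 genes were called, 119 of them lower. The lower count was 45 in sense-strand counts. These held 50.6 to 51.0% of the counts of both strands in the 25 libraries, so strand was not kept. The lower count was 43 and 40 without the 0.03 or 0.1 µg/kg group, 41 without the 1 µg/kg group and 5 without the 3 µg/kg group. It was 29 with vehicle alone and 39 without the 6 libraries. The count at 1 µg/kg was 98 (68 to 130 leaving out single libraries), 167 by DESeq2, 54 without the 2 cortex-rich vehicle libraries and 24 without the 6. At 3 µg/kg it was 234 (138 to 277), 352, 120 and 79. Within the control side the count of 0 (0 to 41) was 17 by DESeq2, 9 without a filter and 1 with a term for low against high mouse numbers. The 10 against 0.3 µg/kg count of 425 (286 to 398) was 673 by DESeq2 and 646 in the fit of all 40 libraries. The 2 calls between 3 and 1 µg/kg stood at 2 to 2 without single libraries. For named genes, 97 results outside the single-library fits lost their call and 861 kept direction and side. Direction turned for 5 named genes, called in 0 of these fits: Tiparp (-0.00696, -0.000871, -0.042, -0.051 and -0.039 with the cortex term, the mouse-number term, sense-strand counts, vehicle alone and no 0.1 µg/kg group, and -0.029 to 0.031 over the single-library fits), Ahr (-0.034) and Havcr1 (0.050) with vehicle alone, Arnt (-0.00160) without the 3 µg/kg group and Lcn2 (-0.070) without the 6. Calls of Ces1g, Acaa1b, Hbb-bt and Hbb-bs were lost in 32, 28, 24 and 20 fits. The causes were not tested. What depth limits was not tested. No paired analysis was possible because the labels give the dose groups no shared replicate numbers.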
